A study of Homo sapiens with 4 samples.

Results

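Shared cohesin and CTCF peaks that lie away from transcript starts and coding exons were described in HG00731, a human lymphoblastoid cell line (LCL, B cells kept in culture by Epstein-Barr virus). Cohesin was mapped with an antibody against its SMC1 subunit by cohesin FA-EGS HiChIP, in which cells were fixed with 1% formaldehyde (FA) for 15 min and with 2 mM ethylene glycol bis(succinimidyl succinate) (EGS) for 45 min. CTCF was mapped by FA HiChIP, with 1% FA for 10 min and no EGS. Target and fixation thus differ together and cannot be told apart. Both targets had 2 replicates, which the deposited peak and loop lists pool, so no value below has a spread between replicates. All values come from 1 cell line.

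The members were chosen by their peak calls and position in hg38. An SMC1 peak on chromosomes 1 to 22 was a member if it overlapped a CTCF peak by at least 1 bp, lay over 1 kb from every transcript start in GENCODE release 44 and had its summit outside the exons of protein-coding genes. Of 94628 SMC1 peaks on these chromosomes, 44510 overlapped a CTCF peak, 30893 of those lay over 1 kb from the starts, and 29436 were members. The summits of 17827 members fell in introns, 14365 of them in introns of protein-coding genes and 3462 in introns of noncoding genes alone. A further 11212 members were intergenic, and 397 lay in exons of noncoding genes. The members overlapped 30710 of the 61417 CTCF peaks, and 1399 members overlapped more than 1.

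Cohesin is a ring-shaped complex that holds DNA together and is thought to form loops by extruding chromatin until it meets a barrier. CTCF, a zinc finger protein that binds an asymmetric DNA motif, is the best known barrier, and loops tend to join CTCF sites whose motifs point toward each other. Sites of CTCF and cohesin away from promoters include the borders of topological domains and insulators between enhancers and genes. In HiChIP, chromatin is cut with DpnII, which recognises GATC, nearby ends are ligated, and the antibody pulls down the ligated fragments, so the same reads give peaks and loops.

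As a check of the cell type, 32 of 33 autosomal genes in a list of B cell genes had an SMC1 peak within 1 kb of a transcript start, against 15 of 30 in a list of transcription factor genes of other lineages. The share over all protein-coding genes was 67.1%. On chromosomes 1 to 22 the loop list labelled SMC1 contained 27785 loops and 783375 read pairs, and that labelled CTCF 79406 loops and 2635261 read pairs. The study's supplement assigns these loop totals the other way round, so each list is called by its label only, both are reported, and nothing is drawn from the difference in their size.

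The CTCF motif learned from CTCF peaks that overlap no member reads NNNCCNNNAGGNGGCNNNN, where a letter is named if it takes at least 60% of its position, and both strands were searched. The matches in the members with the highest SMC1 and CTCF significance are shown to give the sequences behind the peak heights. The motif match is in capitals, with 10 reference bases on either side in lower case, each 5′ to 3′ on the strand of the motif. The first 3 are the intronic members with the highest SMC1 −log10 q-value, in CRTC3-AS1, an antisense RNA, in ANKRD6, an ankyrin repeat protein, and in TOM1L2, a protein of endosomal sorting. The fourth is intergenic. The last pair have the highest CTCF −log10 q-value among the remaining members with a match, in an intron of the chemokine receptor gene XCR1 and near ANKRD60.
CRTC3-AS1, chr15:90648222-90648260, plus strand: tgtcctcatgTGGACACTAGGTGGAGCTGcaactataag
ANKRD6, chr6:89610236-89610274, minus strand: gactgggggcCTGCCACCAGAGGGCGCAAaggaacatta
TOM1L2, chr17:17860376-17860414, minus strand: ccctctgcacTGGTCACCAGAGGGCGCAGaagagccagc
Intergenic peak, chr7:76314469-76314507, minus strand: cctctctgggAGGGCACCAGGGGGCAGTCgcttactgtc
XCR1, chr3:46078967-46079005, minus strand: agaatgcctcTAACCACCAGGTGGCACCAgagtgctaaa
ANKRD60, chr20:58210019-58210057, minus strand: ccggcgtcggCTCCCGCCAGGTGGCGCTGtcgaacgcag

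The CRTC3-AS1 peak, at chr15:90647820-90649149, had an SMC1 fold enrichment of 11.3 over the local background, a −log10 q-value of 609, a CTCF fold of 16.1 and a motif of 15.7 bits. The XCR1 peak had an SMC1 fold of 8.85 and a CTCF fold of 20.8, with a motif of 18.1 bits. The intergenic peak on chromosome 7 had an SMC1 fold of 10.2 and a CTCF fold of 16.6. These peaks stood in anchors of both loop lists, with 6 and 12 loops at CRTC3-AS1, 13 and 14 at XCR1 and 10 and 13 at the chromosome 7 peak, in the lists labelled SMC1 and CTCF.

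Not every high peak was of this kind. The member with the highest SMC1 −log10 q-value of all, 1869, lay at chr3:93470361-93470794, 372970 bp from the nearest transcript start, with an SMC1 fold of 20.9 and a CTCF fold of 24.6. Its best motif match scored −0.70 bits and it had 0 loops in either list. The same held for the intergenic peak at chr16:46389619-46391330, with a −log10 q-value of 795 and a best match of 2.44 bits. It also held for that at chr1:125180076-125180446, which had the highest CTCF fold of all members, 32.2. The chromosome 1 peak lay 3599552 bp from the nearest start. How uniquely reads map at these 3 peaks was not examined, and whether the peaks reflect binding of either protein was not tested. The reference sequence at the chromosome 3 summit is shown because short stretches recur along the window, which holds no GATC among its 221 bases.
Chromosome 3 peak, chr3:93470461-93470681, plus strand: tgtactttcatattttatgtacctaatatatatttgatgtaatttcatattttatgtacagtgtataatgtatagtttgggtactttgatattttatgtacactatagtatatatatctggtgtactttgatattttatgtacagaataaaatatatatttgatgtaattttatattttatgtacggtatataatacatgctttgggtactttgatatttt
Of the 100 members with the highest SMC1 −log10 q-value, 6 had a best match under 7 bits within 200 bp of the CTCF summit, and 3 of these 6 had no loop in either list.

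Values on both sides of the limit on transcript starts are given as a description. Just inside it, 1001 bp from the nearest start, lay a member near CEACAM6 with an SMC1 fold of 5.76 and another near a gene without a name with a fold of 4.04. The shared peaks just outside lay 1000 bp from MIR6070, with a fold of 5.72, and 999 bp from MIR3167, with a fold of 8.51. Median SMC1 folds were 4.28 for the 746 members over 1000 and up to 1250 bp from a start and 4.09 for 830 shared peaks over 750 and up to 1000 bp away. Their median SMC1 −log10 q-values were 33.1 and 28.0, and their median CTCF folds 6.32 and 5.82.

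Peak height, which the choice of members used in part, is given as a description. The median SMC1 fold of the members was 4.64 (quartiles 3.37 and 6.13) and their median −log10 q-value 32.0. The median fold was 4.65 for the 13617 shared peaks within 1 kb of a start (shared promoter peaks) and 2.71 for the 36889 distal noncoding SMC1 peaks without a CTCF peak (SMC1-only distal peaks). The fold medians of members and shared promoter peaks were thus within 0.02, while the median −log10 q-value of shared promoter peaks was higher, 38.3 (37.6 to 39.0) against 32.0 (31.4 to 32.6). The median width of members, 942 bp, stood between the 1028 bp of shared promoter peaks and the 453 bp of SMC1-only distal peaks. The CTCF peaks of members had a median fold of 6.73 and those of shared promoter peaks 5.99. The CTCF fold was above the SMC1 fold of the same site in 87.0% of members and in 75.4% of shared promoter peaks.

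Intergenic members were higher than intronic ones in both targets. The median SMC1 fold was 4.86 in intergenic members (95% interval from the ranks 4.82 to 4.92) and 4.48 in intronic members (4.45 to 4.52). The median CTCF fold was 7.23 (7.14 to 7.31) and 6.42 (6.35 to 6.498). The intervals do not overlap, and as with all intervals here they cover counting error over peaks only. Single peaks of both groups overlap widely, with quartiles of the SMC1 fold of 3.55 and 6.37 in intergenic and 3.28 and 5.98 in intronic members. The 397 members in noncoding exons had a median SMC1 fold of 4.57 (4.31 to 4.78), between the others.

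SMC1 and CTCF height rose together across members. Across 29436 members, which share their libraries and local background, Pearson's r of the log2 folds was 0.75 and Spearman's coefficient of the folds 0.76, against 0.64 and 0.63 across the shared promoter peaks. In the lowest quartile of CTCF fold, 1.76 to 4.34, the median SMC1 fold was 3.14, close to the CTCF fold of 3.41. In the highest quartile, 9.53 to 32.2, it was 6.91 against a CTCF fold of 11.5. These quartiles were cut on the CTCF fold, which itself favours a wider spread of the CTCF median, so nothing is drawn from the steepness. In quartiles of the SMC1 fold the SMC1 median went from 2.82 to 7.20 and the CTCF median from 3.94 to 10.9.

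**Figure D1:**
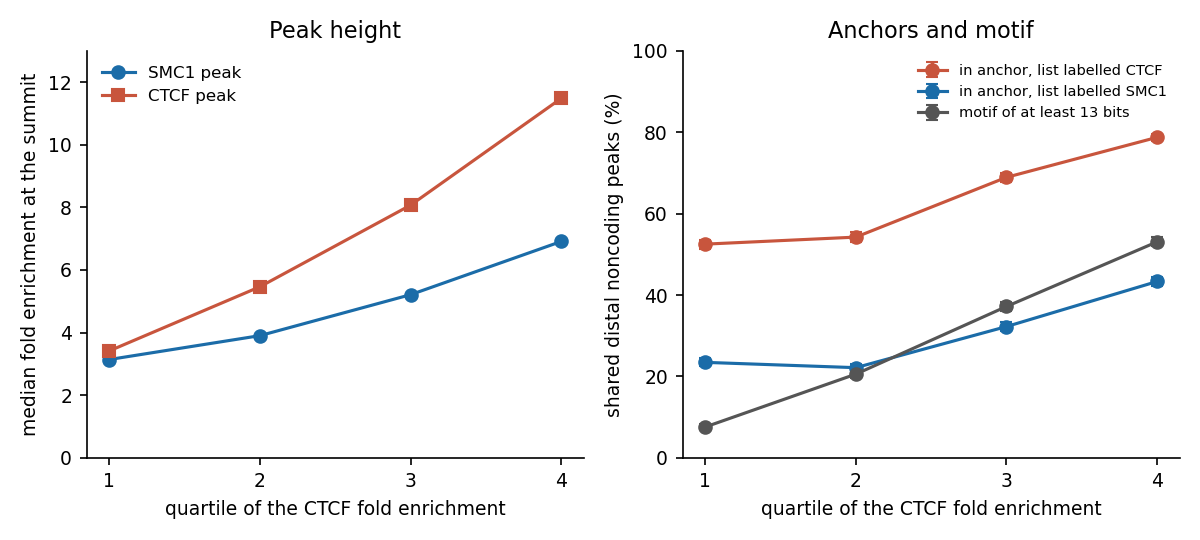
Median fold enrichment at the summit (left) and percent of shared distal noncoding peaks in loop anchors or with a CTCF motif of at least 13 bits (right), by quartile of the CTCF fold, 7359 members each; bars are 95% Wilson intervals. The median SMC1 fold goes from 3.14 to 6.91 and the motif share from 7.57% to 53.1% between the lowest and the highest quartile.

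The base composition of members was unlike that of promoter peaks. Within 100 bp of the SMC1 summit the median GC content was 45.3% in members, 56.7% in shared promoter peaks and 43.3% in SMC1-only distal peaks. The median number of CpG dinucleotides in that window was 2 in members, 7 in shared promoter peaks and 1 in SMC1-only distal peaks. Intergenic members had 46.3% GC and intronic members 44.8%.

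The CTCF motif was enriched at members over nearby sequence. Within 50 bp of the CTCF summit, 26.6% of members (26.1 to 27.1) held a match of at least 7 bits, against 8.13% of windows 1000 bp away. At 13 bits the shares were 10.4% and 0.425%. Widening the search to 200 bp, a setting chosen after the data were seen, gave a match of at least 13 bits in 8711 members, 29.6% (29.1 to 30.1), against 1.85% in the shifted windows. These 8711 matches are used below for all shares by motif strand, unless 7 bits are stated.

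Members shared the motif with the other SMC1 peaks that overlap a CTCF peak. Within 100 bp of the SMC1 summit a match of at least 13 bits was present in 17.8% of members (17.3 to 18.2), 19.4% (17.5 to 21.5) of the 1457 shared peaks in coding exons and 12.6% of shared promoter peaks, against 0.626% of SMC1-only distal peaks and 7.96% of all SMC1 peaks. The share at SMC1-only distal peaks did not exceed the 1.0003% in their windows 1000 bp away. Members were chosen by overlap with a CTCF peak, and the motif was learned from other CTCF peaks. The contrast with SMC1-only distal peaks and all SMC1 peaks, and the excess over shifted windows, thus follow in part from that choice. With matches of at least 7 bits members, at 44.1%, were below the shared peaks in coding exons, at 50.03%, and at promoters, at 49.8%. Their windows 1000 bp away held such a match in 16.4%, 22.1% and 25.7%. Intergenic members held the motif within 200 bp of the CTCF summit more often, 32.1% (31.2 to 32.9), than intronic members, 28.0% (27.3 to 28.6). By CTCF fold the share rose from 7.57% in the lowest quartile to 53.1% in the highest. Conversely, the median SMC1 fold was 4.15 in the 3566 members whose best match within 200 bp scored under 4 bits. It was 6.26 in the 2728 members at 16 bits or more. The rise was not steady, with 3.92 at 4 to under 7 bits and 4.06 at 7 to under 10 bits.

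The summits of both targets stood close together at members, though the choice of members by overlapping peaks itself favours short distances. Their distance had a median of 51 bp and quartiles of 16 and 123 bp, and 70.5% of members had them within 100 bp. Relative to the 8711 motif matches, SMC1 summits lay a median of 9 bp to the 3′ side of the motif centre (7 to 12), with quartiles of −64 and 88 bp. CTCF summits lay at −1 bp (−2 to 0). Among SMC1 summits at least 50 bp from the motif centre, 54.9% (53.6 to 56.2) were on the 3′ side, and among such CTCF summits 49.0% (47.6 to 50.3). The SMC1 shift is thus small beside the spread of the summits, and it was 5 bp (2 to 7) with matches of 7 bits within 50 bp of the CTCF summit.

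Summit positions also followed the cut sites of DpnII. The SMC1 summit fell on a base of a GATC in 6523 members, 22.2% (21.7 to 22.6), against 0.965% for points 800 bp away. The CTCF summit did so in 6.64% of members, against 0.887%. At SMC1-only distal peaks the share was 34.3% and at shared promoter peaks 34.7%, so members were below both. Intronic and intergenic members were alike in this, at 22.5% and 21.5%.

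Around CTCF summits, sites were few close by and frequent at about 100 bp. There were 1.06 sites per 100 members in the 20 bp just upstream and 5.98 in the 20 bp just downstream, against 4.88 per 20 bp at 600 to 1000 bp. Sites were binned by their centre along the reference, and both of the near bins include summits on a site. Of the 1.06, 0.829 were sites that start 3 bp before the summit and cover it. The number of sites per 20 bp reached 9.58 at 80 to 100 bp upstream and 9.69 at 80 to 100 bp downstream. SMC1 summits showed 8.24 and 8.27 sites per 100 members in the same bins, against 4.78 far away. Members with the SMC1 summit on a GATC had it a median of 88 bp (86 to 90) from the CTCF summit, against 42 bp (41 to 43) in the others. Their SMC1 offset along the motif was 26 bp (21 to 31) against 3 bp (1 to 7). Shares in loop anchors were alike with and without a GATC at the summit, 30.6% and 30.2% for the loop list labelled SMC1 and 62.9% and 63.8% for that labelled CTCF. The part of the cut sites in the summit positions was not tested.

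**Figure D2:**
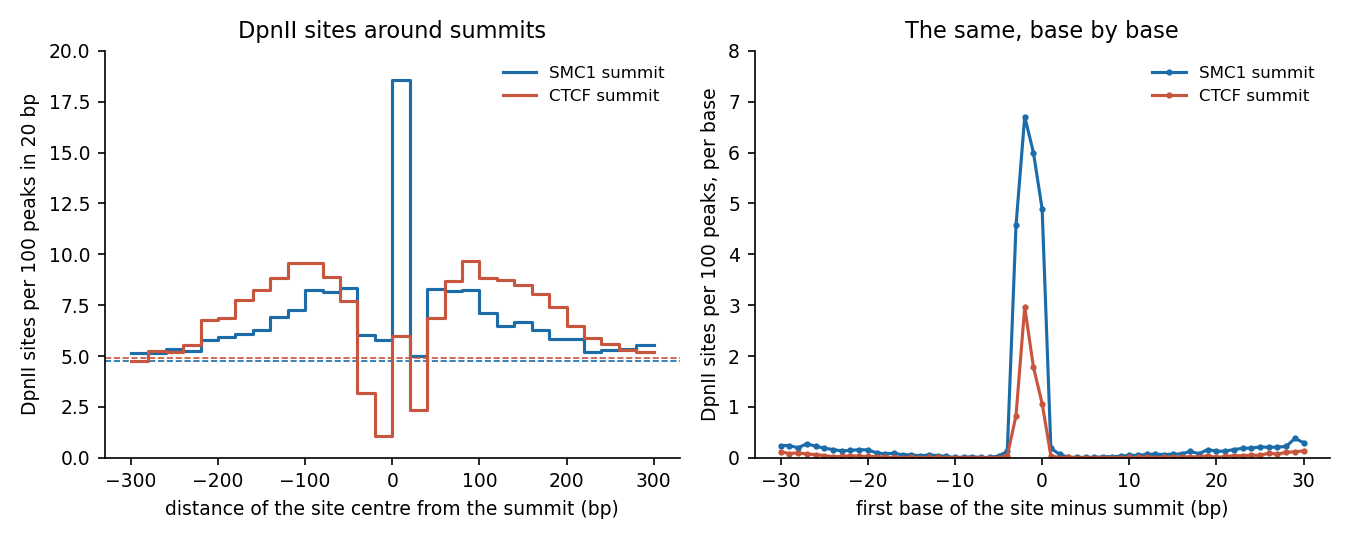
DpnII sites (GATC) per 100 shared distal noncoding peaks by distance from the SMC1 and CTCF summits, in 20 bp bins (left; dashed lines, mean at 600 to 1000 bp) and base by base (right). The peak at the summit, 18.5 sites per 100 members in the first 20 bp downstream of SMC1 summits, comes from summits that lie on the site itself, and CTCF summits stand in a gap with sites most frequent at about 100 bp on either side.

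Members were in loop anchors more often than SMC1 peaks as a whole. A loop anchor is a 5 kb bin. For the list labelled SMC1, 8917 members overlapped an anchor, 30.3% (29.8 to 30.8), against 22.3% of all SMC1 peaks. For the list labelled CTCF it was 18718, 63.6% (63.0 to 64.1), against 51.4% of all SMC1 peaks. The loop caller MAPS looks for loops at the HiChIP peaks, so these shares are not independent of the peak calls. Shared promoter peaks were above members, with 38.5% (37.7 to 39.4) and 69.8% (69.0 to 70.6). Shared peaks in coding exons were also above, with 38.2% (35.7 to 40.7) and 71.7% (69.4 to 74.0). SMC1-only distal peaks were below, with 11.2% and 36.1%. Members were thus the lowest of the classes that share a CTCF peak. In all, 29.1% of members were in anchors of both lists and 35.2% in none. The shares were 20.8% and 47.1% of all SMC1 peaks, and 36.5% and 28.1% of shared promoter peaks.

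Position and height went along with anchor membership. Anchors of the list labelled SMC1 held 32.6% of intergenic members (31.7 to 33.5) and 28.8% of intronic members (28.1 to 29.4). For the list labelled CTCF the shares were 64.2% (63.3 to 65.1) and 63.2% (62.5 to 63.9), whose intervals overlap. From the lowest to the highest quartile of CTCF fold the shares went from 23.5% to 43.3% and from 52.5% to 78.7%, though in the list labelled SMC1 the second quartile, at 22.1%, was no higher than the first. Members with a match of 16 bits or more were in anchors in 49.3% and 79.6% of cases, and members with a best match under 4 bits in 17.6% and 56.2%. Within introns, members in anchors of the list labelled CTCF had a median SMC1 fold of 4.92 and those outside 3.87, and between genes the values were 5.32 and 4.20.

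**Figure D3:**
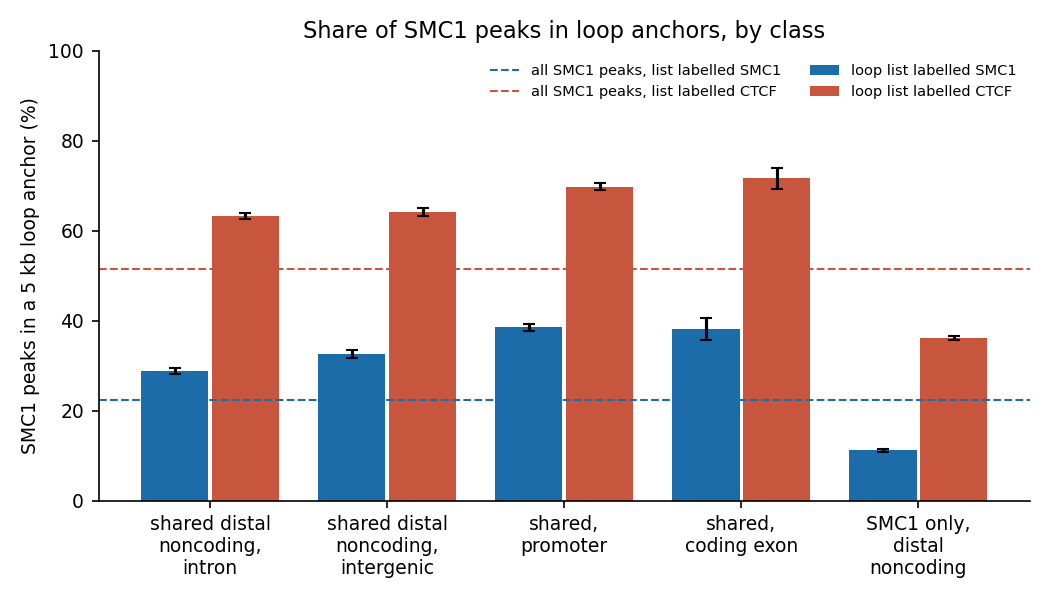
Percent of SMC1 peaks that overlap a 5 kb loop anchor, by class of peak and loop list, with 95% Wilson intervals; dashed lines mark all SMC1 peaks, 22.3% and 51.4%. Intronic and intergenic members stand below shared peaks at promoters and in coding exons and above SMC1-only distal peaks in both lists.

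Most members in anchors took part in few loops. The median was 2 loops per member in the list labelled SMC1 (quartiles 1 and 4) and 3 in the list labelled CTCF (1 and 6). Members with 10 loops or more made up 5.52% of those in anchors of the first list and 10.8% in the second. Such members were more frequent between genes, 7.72% (6.89 to 8.63) and 13.3% (12.6 to 14.1), than in introns, 3.90% (3.40 to 4.47) and 9.27% (8.75 to 9.82). Shared promoter peaks in anchors had the same medians, 2 and 3, and 7.35% and 10.4% of them had 10 loops or more. For SMC1-only distal peaks the medians were 1 and 2 and the shares 1.58% and 2.71%. The member with most loops in both lists lay at chr19:15555533-15556929, nearest to the pseudogene CYP4F23P, with 71 and 57 loops, an SMC1 fold of 7.99 and a motif of only 7.57 bits. An intergenic member at chr1:225474736-225475907 had 55 and 22 loops and a motif of 18.7 bits, and a member in an intron of HIVEP3, a zinc finger gene, had 19 and 50.

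Loops with a member made up most of each list. A member stood at 1 or both anchors in 20031 loops of the list labelled SMC1, 72.1%, and in 57524 loops of the list labelled CTCF, 72.4%. Members stood at both anchors in 5993 loops, 21.6%, and 17479 loops, 22.01%. The loops between members were longer than loops without a member, with a median of 160 kb (155 to 165) against 105 kb (105 to 110) in the first list and 180 kb (180 to 185) against 90 kb in the second. Of the anchors that held a member, 72.6% and 73.0% held no other SMC1 peak.

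The other end of a member's loop held a member about as often as any loop end did. Of 26024 loop ends opposite a member in the list labelled SMC1, 46.1% held a member, 26.5% the start of a protein-coding transcript and 20.9% no SMC1 peak, against 46.8%, 30.8% and 16.4% of all 55570 loop ends. For the list labelled CTCF, with 75003 such ends, the shares were 46.6%, 22.7% and 19.7%, against 47.2%, 26.4% and 14.6% of all 158812. Ends opposite a member thus held a protein-coding start less often than loop ends as a whole, and no SMC1 peak more often. An SMC1-only distal peak stood opposite in 13.8% and 18.3%, against 12.3% and 18.5% of all ends. One end can hold several of these.

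Loops between members were present in both lists more often than other loops. Of the loops with members at both anchors in the list labelled SMC1, 85.0% (84.1 to 85.9) were in the list labelled CTCF with the same bins, against 68.7% of loops with a member at 1 anchor and 57.3% of loops without one. As a share of the larger list, the same 5094 loops were 29.1% of its loops between members, against 24.1% and 20.3% for the other kinds. The observed read pairs over those expected by MAPS were also compared within classes of distance. From 200 to 1000 kb in the list labelled CTCF the median ratio was 6.60 (6.51 to 6.68) between members and 5.25 (5.17 to 5.36) without a member, and in the list labelled SMC1 5.61 (5.52 to 5.72) and 5.23 (5.12 to 5.33). From 100 to under 200 kb the intervals overlapped in the list labelled SMC1, with 4.25 (4.16 to 4.35) between members and 4.10 (4.02 to 4.17) without a member.

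Motif strand followed the side of the loop on which a member stood. Of members with a motif that lay only in left anchors of the list labelled SMC1, 1344 of 1487 held it on the forward strand, 90.4% (88.8 to 91.8), and of those only in right anchors 144 of 1485, 9.70% (8.29 to 11.3). The shares for the list labelled CTCF were 92.7% and 6.78%. Members found in both left and right anchors, and members in no anchor, were split evenly, at 50.2% and 50.1% in the first list and 51.6% and 49.3% in the second. Counted by loop, a member's motif pointed into its loop at 87.9% of left and 87.5% of right anchors in the first list and at 90.0% and 90.1% in the second.

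**Figure D4:**
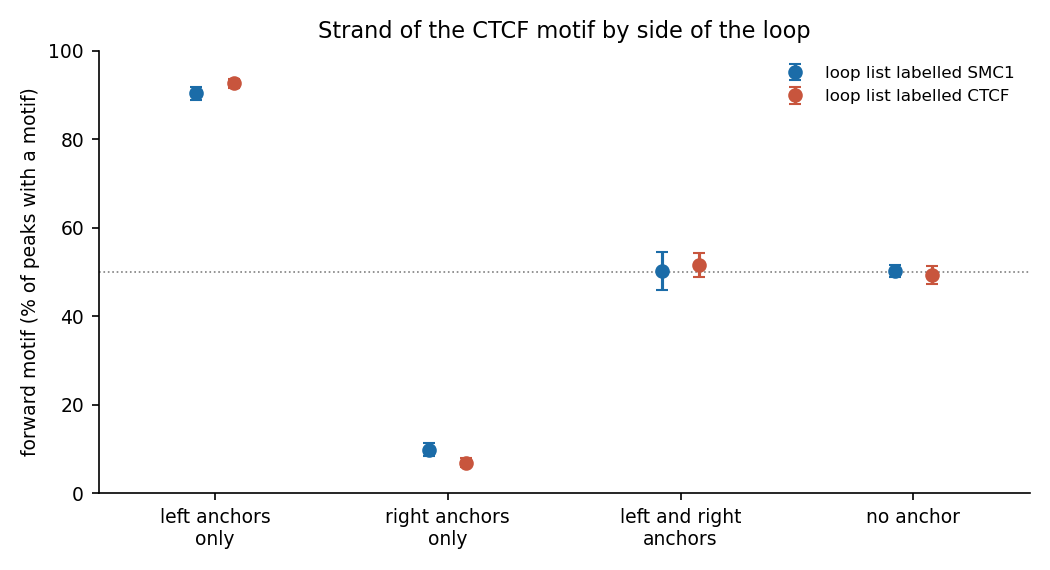
Percent of shared distal noncoding peaks with a forward motif of at least 13 bits, by the side of the loops they anchor, for both loop lists, with 95% Wilson intervals; the dotted line marks an even split. Members only in left anchors are at 90.4% and 92.7%, members only in right anchors at 9.70% and 6.78%, and the others near the line.

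The inward direction did not require a member at the other end. Among loops of the list labelled SMC1 the member's motif pointed into the loop in 87.7% (86.9 to 88.6) of ends opposite another member, 88.6% (87.4 to 89.7) opposite a protein-coding start without a member and 87.9% (86.7 to 89.0) opposite a bin with no SMC1 peak. These intervals overlap. For the list labelled CTCF the share was lowest opposite another member, 88.0% (87.5 to 88.5), and highest opposite a bin with no SMC1 peak, 93.8% (93.3 to 94.4).

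The share of loops between members whose motifs faced each other depended on the motif matches used. With matches of at least 7 bits within 50 bp of the CTCF summit at both anchors, 515 of 867 loops in the list labelled SMC1 were convergent, 59.4% (56.1 to 62.6), and 1125 of 1879 in the list labelled CTCF, 59.9% (57.6 to 62.1). They were 43.1% and 41.5% with a motif of low information, learned with the share of training windows that hold a site estimated, a setting added after the data were seen. The shares were higher with the stricter matches of at least 13 bits within 200 bp, also chosen after the data were seen. Then 1118 of 1468 loops in the list labelled SMC1 were convergent, 76.2% (73.9 to 78.3), and 11 were divergent, 0.749% (0.419 to 1.34). Of the list labelled CTCF 2491 of 3281 loops were convergent, 75.9% (74.4 to 77.4), and 23 were divergent. The 2 tandem orientations were about equal, at 11.5% and 11.6% in the first list and 12.1% and 11.2% in the second.

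Convergent loops held more read pairs over expectation than tandem loops, and in the list labelled CTCF they were longer. The median distance in that list was 215 kb (205 to 225) for convergent loops against 185 kb (160 to 195) and 170 kb (155 to 190) for the tandem ones. In the other list the intervals overlapped, with 190 kb (180 to 200) against 175 kb (150 to 195) and 160 kb (130 to 190). From 100 to under 200 kb the ratio of observed to expected read pairs was 6.26 (5.98 to 6.61) against 3.88 (3.65 to 4.03) in that list and 4.70 (4.41 to 5.06) against 3.43 (3.16 to 3.77) in the list labelled SMC1. The convergent share was 85.2% (82.2 to 87.7) of loops of 400 kb or more in the list labelled CTCF and 71.0% (68.1 to 73.8) at 100 to under 200 kb. For the list labelled SMC1 these were 80.0% (73.9 to 85.0) and 74.3% (70.2 to 78.0), whose intervals overlap. Loops present in both lists were convergent in 80.8% (78.6 to 82.8) of 1338 cases. Those of the list labelled SMC1 alone were so in 37 of 130 cases, 28.5% (21.4 to 36.7), and those of the list labelled CTCF alone in 72.6% (70.5 to 74.5) of 1943.

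**Figure D5:**
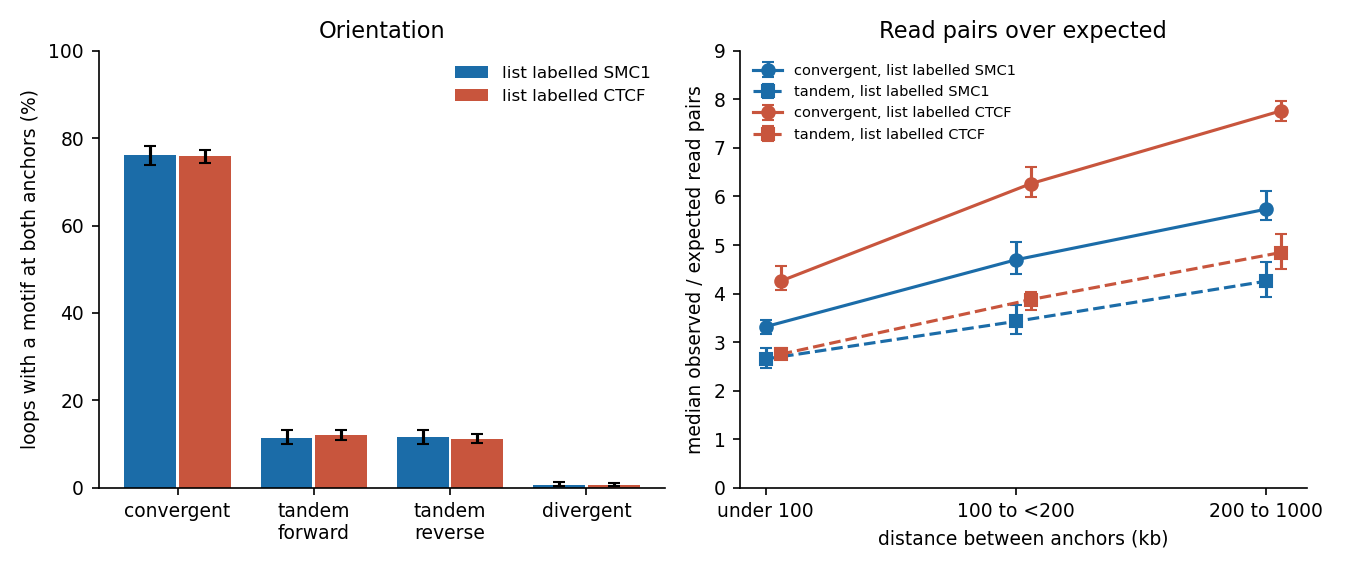
Orientation of CTCF motifs of at least 13 bits at loops between shared distal noncoding peaks (left, percent with 95% Wilson intervals) and median observed over expected read pairs of convergent and tandem loops by distance (right, with 95% intervals from the ranks). Convergent loops make up 76.2% and 75.9%, and their ratio is above that of tandem loops in each of the 3 distance classes of both lists.

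The motifs at the ends of the strongest and the longest loops between members are shown because they give the orientations base by base. The loop with most read pairs in the list labelled CTCF joined a member near SPINT1, a serine protease inhibitor gene, to a member near VPS18, a gene of vesicle tethering, over 35 kb on chromosome 15. It had 675 read pairs against 103 expected, and 318 against 87.1 in the list labelled SMC1. Its motifs faced each other, though that near VPS18 scored 10.8 bits and is not among the 8711 matches. The longest loop of that list spanned 1000 kb on chromosome 9 with 17 read pairs against 1.66 expected, again between facing motifs, and was not in the other list. The longest in the list labelled SMC1 spanned 990 kb on the same chromosome, with 30 read pairs against 2.82, between facing motifs near a copy of the signal recognition particle RNA and in MVB12B, a gene of endosomal sorting.
SPINT1, chr15:40859296-40859334, plus strand: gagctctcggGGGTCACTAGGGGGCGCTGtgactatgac
VPS18, chr15:40892013-40892051, minus strand: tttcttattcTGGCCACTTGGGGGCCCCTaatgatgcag
Longest loop, left end, chr9:13427699-13427737, plus strand: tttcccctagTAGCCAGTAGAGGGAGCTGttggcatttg
Longest loop, right end, chr9:14428940-14428978, minus strand: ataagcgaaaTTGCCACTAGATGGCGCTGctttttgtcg

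The loop with most read pairs in the list labelled SMC1 was of another kind. It joined an intergenic member near E2F2, a cell cycle transcription factor gene, to a member in an intron of MDS2 over 95 kb on chromosome 1, with 319 read pairs against 28.2 expected and 666 against 43.3 in the list labelled CTCF. Both of its motifs lie on the minus strand. The anchor near E2F2 starts at chr1:23540001, inside the match printed below, so most of that match lies outside the anchor. The orientation at this end thus rests on a match at the edge of the anchor. The member near E2F2 was the lower of the pair, with an SMC1 fold of 3.502 against 7.17. It had 28 loops in the list labelled SMC1 against 19. Its peak, chr1:23539204-23540369, crosses a border between bins, while the MDS2 peak lies within 1 bin. The loop counts are therefore not a like comparison.
E2F2, chr1:23539976-23540014, minus strand: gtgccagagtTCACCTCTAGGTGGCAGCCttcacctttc
MDS2, chr1:23637589-23637627, minus strand: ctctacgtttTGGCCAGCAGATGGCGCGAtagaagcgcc

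Along the chromosomes members were unevenly spaced. Neighbouring summits lay a median of 43608 bp apart (quartiles 15564 and 103804 bp), 10.1% within 5 kb, which a single anchor can span, and 2.28% over 500000 bp. The density was lowest on chromosome 13, with 6.77 members per Mb, and highest on chromosome 19, with 14.8. As a share of all SMC1 peaks of the chromosome the order differed, with 31.5% on chromosome 13 and 27.8% on chromosome 19. Over the 22 chromosomes Pearson's r between members per Mb and protein-coding genes per Mb was 0.79 and Spearman's coefficient 0.78. For SMC1-only distal peaks Pearson's r was 0.02 and Spearman's coefficient 0.29.

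Motif strand was compared between members that follow each other among the 8711 with a motif. Members without a motif can lie between them, so these pairs are not the neighbouring summits above. The strands within these pairs were not independent. At distances of 5000 to 20000 bp, 30.6% (27.0 to 34.3) of 612 such pairs pointed away from each other. A further 14.4% (11.8 to 17.4) faced each other, and 55.1% were on the same strand. Over 100000 bp apart the order was turned, with 22.96% (21.9 to 24.1) of 5631 pairs pointing away and 28.4% (27.3 to 29.6) facing. Relative to the host gene, intronic motifs were on the same strand in 1790 of 3737 cases, 47.9% (46.3 to 49.5).

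Intronic members fell in 6602 of 19111 protein-coding genes, of which 50.2% held 1 and 1.65% held 10 or more. The most were in PDE4D, a cAMP phosphodiesterase gene of 1553 kb, with 25 members, in GSE1 and HIVEP3 with 21 each, and in ARHGAP26 and KAZN with 19 each. These are long genes, and their density ran from 1.55 members per 100 kb in KAZN to 4.14 in GSE1 and ARHGAP26. In PDE4D 3 of its members were in anchors of the first list and 18 in anchors of the second, and in HIVEP3 10 and 14. The motif strand was mixed in PDE4D, with 3 of 6 on the gene's strand, and uniform in GSE1, with 5 of 5.

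Loops joined members to the transcript starts of most B cell genes. Of 33 autosomal B cell genes, 21 had such a loop in the SMC1-labelled list and 27 in the CTCF-labelled one, and of 30 transcription factor genes of other lineages 3 and 7. Over all protein-coding genes the shares were 18.3% and 36.9%. By the sum of both lists, in which a loop present in both counts 2 times, BCL2, which blocks cell death, came first with 13 and 12 loops, followed by CIITA, the activator of MHC class II genes, with 9 and 15. Then came the transcription factor gene IRF8 with 7 and 12, the B cell coactivator gene POU2AF1 with 10 and 9, IKZF3, which encodes Aiolos, with 11 and 7, and TNFAIP3, an inhibitor of NF-kB signalling, with 6 and 11.

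All of these 6 genes had an SMC1 peak at a start and 7 to 12 members within 100 kb of the gene. Their loops reached 405 kb, at CIITA in both lists, and the IKZF3 loop with most read pairs had 113 in the SMC1-labelled list and 313 in the CTCF-labelled one. Genes of other lineages with such loops included the neural factor gene NEUROG2, with 1 and 5, the epithelial factor gene GRHL2, with 0 and 5, and the cardiac factor gene GATA4, with 2 and 2. Members themselves were near almost all genes of both lists, within 100 kb of 33 of 33 and 27 of 30. Members near protein-coding genes as a whole were not counted, so nothing is drawn from the numbers within 100 kb. B cell genes without such a loop in either list were BCL6, ETS1, IKZF1, REL and SPI1.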

How the data were processed

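SMC1 FA-EGS HiChIP and CTCF FA HiChIP of the HG00731 LCL, with 2 replicates each, were used as 1 pooled peak list and 1 pooled loop list per target. Reads had been mapped by the authors with BWA-MEM (hg38, MapQ over 30) and deduplicated, and peaks called at a q-value of 0.01 with MACS3 3.0.1, a version from the submitters' processing notes. The deposited fold enrichment is the ratio of summit pileup to local background. Significance is deposited as the −log10 q-value, used here, and as a −log10 p-value and a score, not used. The authors called loops with MAPS, and the deposited loop lists give the raw count of read pairs per pair of 5 kb bins, the expected signal and a false discovery rate, which is an adjusted p-value. The last of these and the −log10 P per cluster were not used. The loop totals of the lists are assigned the other way round in the study's supplement. The number of reads per replicate is unknown, since it is not part of the lists.

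The members and gene lists were chosen with earlier results of these data known. Intronic summits lay in the body of any GENCODE release 44 gene and outside every exon. Expectation maximization gave a 19 bp motif from the 3000 CTCF peaks of highest −log10 q-value on odd-numbered chromosomes that overlap no member, with the share of windows holding a site fixed at 30%, and scored in bits over the base composition. That share was fixed after a first motif had been seen. Best matches on either strand were sought within 50 bp of the CTCF summit, or within 200 bp where stated, with windows 1000 bp away as the control. Offsets are SMC1 summit minus motif centre, positive toward the 3′ end. A loop is convergent with a forward motif at the left and a reverse motif at the right anchor. Items were named by rank of −log10 q-value, read pairs, loop length, loops per member or gene, and members per gene, not all of them printed. Sequences are from the hg38 reference, none from chromosome 8. Shares carry Wilson intervals and medians intervals from the ranks, at 95%. No test between groups was made. On simulated data 12 of 12 planted motif letters and 300 of 300 strands were recovered. The simulation planted sites at the same share of 30% that the learning was fixed at. Strands were counted only at planted sites with a match of at least 7 bits. The check thus covers the code and not the motif matches in the real peaks. Scripts ran in Python 3.11.15 with pysam 0.24.0, pandas 2.3.3, SciPy 1.17.1, NumPy 2.4.6 and Matplotlib 3.10.9.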

Additional observations from a re-analysis of the deposited data

How the results depend on the processing

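No paired analysis was possible because the deposited lists pool both replicates, and for the same reason none was left out. The number of members stayed within 1.5 times under its 4 alternatives, and the sign of the SMC1 offset held under all 11. Values outside the interval of the reported value were as follows.

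With each summit inside the other target's peak, the intron share was 59.9%, the motif share 27.6% and the anchor shares 31.2% (list labelled SMC1) and 65.0% (list labelled CTCF). Over 5 kb from every start they were 57.7%, 26.0%, 27.3% and 61.5%, with convergent shares of 63.1% and 62.4%. With a minimum −log10 q-value of 10 in both peak lists they were 58.6%, 29.8%, 35.6% and 72.0%. With the whole peak outside all exons the intron share was 58.6% and the anchor shares 29.2% and 62.6%. Introns of protein-coding genes alone gave 48.8%.

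A minimum of 10 bits gave a motif share of 17.8% and convergent shares of 71.8% and 67.0%, and 13 bits gave 10.4%, 76.4% and 70.6%. The motif from even-numbered chromosomes gave a share of 27.9%, and 100 bp around the summit 46.1% with a convergent share of 63.3% in the list labelled CTCF. Anchors with 1 SMC1 peak gave anchor shares of 20.9% and 43.8% and convergent shares of 64.3% and 62.4%. Loops with at least the median read pairs gave anchor shares of 19.6% and 47.2%. Even-numbered chromosomes gave 28.4% and 62.5%, with convergent shares of 63.8% and 63.5%. The cause of these differences was not tested.

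The remaining settings were added after the data were seen. Estimating the share of windows with a site gave a motif of 6.21 bits in place of 11.6, a motif share of 49.1% and convergent shares of 43.1% and 41.5%. Matches of 13 bits within 200 bp gave a motif share of 29.6%, an offset of 9 bp and convergent shares of 76.2% and 75.9%, and with anchors of 1 SMC1 peak 80.2% and 79.6%. The lists give no read depth per peak, and 5 kb anchors limit which of several peaks a loop can be ascribed to.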
